A study of Mus musculus with 12 samples.

Results

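Voltage-gated sodium and calcium channels were followed through their pore-forming subunits in the hippocampus of adult mice after neuronal inhibition of miR-9 or miR-34. The members were chosen by gene symbol, by a rule that uses no measured value, and comprised 10 genes, namely Scn1a, Scn2a (earlier Scn2a1), Scn3a and Scn8a for sodium and Cacna1a, Cacna1b, Cacna1c, Cacna1d, Cacna1e and Cacna1g for calcium. They were found among 24209 genes and held 29 of the 32850 RefSeq transcript rows that were counted. Tissue came from 12 C57BL/6 mice in 2 experiments. In the miR-9 experiment, 3 mice carried GFP-miR-9sp and 3 carried the GFP Ctrl vector. In the miR-34 experiment, 3 mice carried GFP-miR-34sp and 3 other mice carried GFP Ctrl. Every mouse, controls included, was a wild-type adult male injected into both hippocampi at 10 weeks of age with an AAV5 vector that expressed GFP from a synapsin promoter, and tissue was taken 10 weeks later. A sponge is an RNA with 8 imperfect binding sites for 1 miRNA family, which occupies the miRNA and keeps it from its own targets. Vector expression was thus limited to neurons, whereas the RNA was extracted from whole hippocampi, so that fewer cells of a type and less RNA per cell cannot be told apart in these values.

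The libraries held between 17279620 and 24428477 counted reads per mouse in the miR-9 experiment and between 11029604 and 16934133 in the miR-34 experiment. The labels call the cell type hippocampal neurons, yet the summed level of 7 astrocyte markers was 3086 to 3528 CPM (reads of a gene per 1000000 counted reads of that mouse) and that of 8 microglia markers was 491 to 573 CPM, beside 1975 to 2394 CPM for 8 neuron markers. Among the neuron markers, Rbfox3, which has 6 rows, lay between 0 and 0.225 CPM. Map2, Syn1 and Syt1 (2 or 3 rows) lay between 1.104 and 2.317 CPM, and Snap25 (2 rows) between 161.1 and 218.3 CPM. All of these were named after their values were seen. Several RefSeq rows were held by 5 of the 8 neuron, 2 of the 7 astrocyte and 0 of the 8 microglia markers. Low counts were more frequent among coding genes with several rows than among those with 1, so the sums do not rank the cell types. In the miR-34 experiment, choroid plexus markers (10 genes) summed to 73.2 to 152 CPM in the sponge mice and 648 to 2383 CPM in GFP Ctrl mice. They also varied in the miR-9 experiment, at 53.67 to 886.4 CPM in sponge and 125.5 to 748.7 CPM in GFP Ctrl mice, where the groups overlapped.

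Voltage-gated sodium channels open when the membrane is depolarised and carry the rising phase of the action potential. Their pore is a single large alpha subunit, which is joined by small beta subunits and held at the axon initial segment by ankyrin and spectrin. Voltage-gated calcium channels turn depolarisation into calcium entry, which triggers transmitter release, dendritic signalling and gene expression. Their alpha-1 subunit forms the pore and sets the channel type, while beta and alpha2delta subunits bring it to the membrane. In the hippocampus, Scn1a is known for its role in inhibitory interneurons, Scn2a and Scn8a for the axons of excitatory neurons, and Scn3a for high expression around birth.

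A miRNA recognises its targets mainly through its seed, bases 2 to 8 of the mature strand. The mature sequences of the inhibited miRNAs (RefSeq, GRCm38.p6) are shown because the seed gives the letters that were looked for in the channel transcripts, with the seed in capitals.
miR-9-5p: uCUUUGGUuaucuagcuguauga
miR-34a-5p: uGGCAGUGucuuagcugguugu
miR-34b-5p: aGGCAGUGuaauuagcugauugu
The members of the miR-34 family share 1 seed, which differs from that of miR-9-5p. The third member of the family, miR-34c-5p, is named only.

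The perfect seed match is ACCAAAG for miR-9 and CACTGCC for miR-34, and either followed by A is called an 8mer here. These letters were searched on the transcript strand of the longest annotated 3′ UTR of each gene (GENCODE M1, mm9). In these 3′ UTRs, 2 of the 10 members, Scn3a and Cacna1e, held a miR-34 match, and each held 1 8mer. Cacna1e also held 1 miR-9 match without the following A, and the other 8 members held neither. For Scn3a and Cacna1e the searched transcript has the length of the counted RefSeq row (within 1 base for Cacna1e), whereas for the other 8 it does not. For Cacna1c a transcript of 7539 bases with a 3′ UTR of 1596 bases was searched, while its counted rows have 12656 to 13841 bases, so that parts of the counted transcripts may lie outside the search. The 3 stretches are shown because they are the matches found in the searched 3′ UTRs of the channel genes, with the match in capitals.
Scn3a, miR-34: acctctgtCACTGCCActctgtga
Cacna1e, miR-34: aacatgggCACTGCCAtagtcctg
Cacna1e, miR-9: agccccaaACCAAAGtcatcccat
The Scn3a stretch lies at chr2:65298397-65298420 on the minus strand, and its match starts at base 202 of a 3′ UTR of 3439 bases. The miR-34 stretch of Cacna1e lies at chr1:156245300-156245323 on the minus strand and starts at base 208 of a 3′ UTR of 5874 bases, and the miR-9 stretch lies at chr1:156243496-156243519 and starts at base 2012. In all 19915 genes with a 3′ UTR, 4.89% held a miR-34 8mer and 11.4% held a miR-9 match. A match is a description of the sequence and does not show that a site is used.

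The genes themselves are spread over 7 chromosomes (mm9). Scn1a (chr2:66108838-66278897), Scn2a (chr2:65458914-65605504) and Scn3a (chr2:65295175-65405684) lie close together on chromosome 2, which also holds Cacna1b (chr2:24459407-24618672). Scn8a lies at chr15:100785829-100876360, Cacna1a at chr8:86912339-87164145, Cacna1c at chr6:118542314-119146249, Cacna1d at chr14:30853135-31304342, Cacna1e at chr1:156239649-156573049 and Cacna1g at chr11:94269705-94335414.

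The channel genes fell into 2 classes by their read numbers. Scn2a, Cacna1e, Scn1a and Scn3a, each with 1 RefSeq row, held 330512 reads over the 12 mice, whereas the 6 members with several rows held 1292 reads together. Scn2a had 146365 reads, Cacna1e 109162, Scn1a 45314 and Scn3a 29671. Among the members with several rows, Scn8a had 424 reads, Cacna1b 419, Cacna1d 364, Cacna1g 73 and Cacna1c 12. Cacna1a, the pore of the P/Q-type channel of nerve terminals, was listed at 0 in every mouse in all 4 of its rows. For reads as counted here, a count of 0 allows up to 3 reads over the 6 mice of an experiment, which is 0.0248 CPM in the miR-9 and 0.0383 CPM in the miR-34 experiment. This limit covers counting error only.

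**Figure D1:**
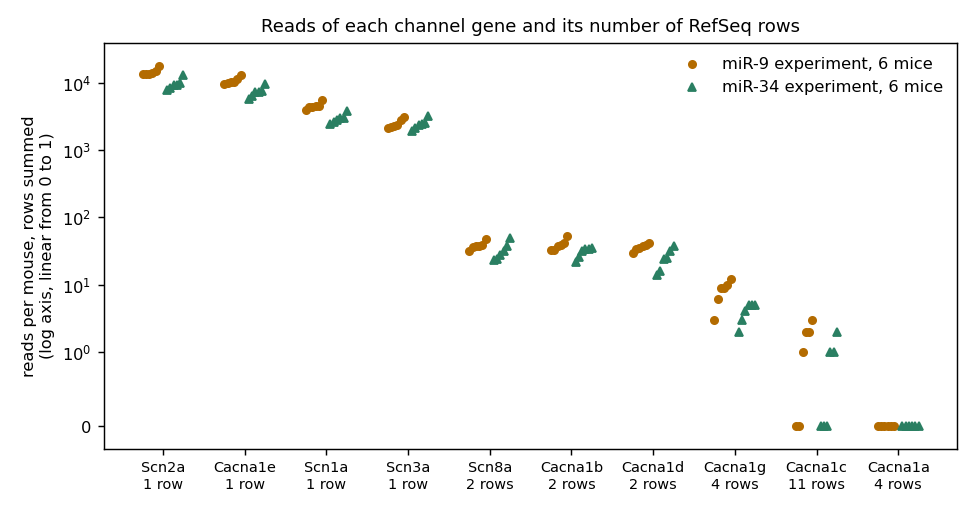
Reads of each channel gene in each of the 12 mice, with its RefSeq rows summed (vertical axis, logarithmic above 1 read), ordered by level, with the number of rows under each symbol. Circles are the 6 mice of the miR-9 experiment and triangles the 6 of the miR-34 experiment. The 4 genes with 1 row have 1907 reads or more in every mouse, and the 6 genes with 2 to 11 rows lie at 52 reads or fewer.

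The low values moved with the number of rows a gene has in the deposited tables, over all coding genes as well. A mean scaled count above 10, the limit used for testing (reads scaled to the average library), was reached by 64.5% of the 16347 coding genes with 1 coding row, 38.1% of the 2514 with 2 rows and 31.3% of the 1852 with 3 or more. Gapdh, a glycolytic enzyme of every cell, has 2 rows and had 1 to 10 reads per mouse. Ank3, which encodes the ankyrin that anchors sodium channels at the axon initial segment, has 9 rows and was listed at 0 in every mouse. Actb, with 1 row, had 28977 to 51910 reads. Not every gene with several rows was low. Camk2a, with 3 rows, had 14043 to 29254 reads per mouse, and Ank2, with 2 rows, had 4040 to 7312. Gapdh, Ank3, Actb, Camk2a and Ank2 were named here after their values were seen. How reads that fit several rows were counted is not given in the sources used here, and its part in the low values was not tested. The levels of Scn8a, Cacna1a, Cacna1b, Cacna1c, Cacna1d and Cacna1g were therefore not set against those of the other members.

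Within these 6 genes, the reads were held by few rows, and 16 of their 25 rows had 0 reads in all 12 mice. For Scn8a, NM_011323 held 339 reads, or 80% of the gene, and NM_001077499 held 85. All 419 reads of Cacna1b, the pore of the N-type channel, were in NM_001042528 and none in NM_007579. For Cacna1d, an L-type channel, NM_001083616 held 354 reads, or 97.3%, and NM_028981 held 10. All 73 reads of Cacna1g, a T-type channel, were in NM_009783, and its other 3 rows had none. Cacna1c, the main L-type channel of the brain, has 11 rows, of which NM_001256002 held 9 reads, NM_001290335 held 2 and NM_001256001 held 1. In every member with several rows, 1 row thus held at least 75% of the counted reads, Cacna1a excepted.

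Among the 4 genes with 1 row, levels per length kept the same order in all 12 mice. In CPM per kilobase of transcript, Scn2a was highest (80.1 to 91.1), followed by Cacna1e (37.5 to 52.1), Scn1a (25.7 to 29.3) and Scn3a (11.7 to 21.2), and the ranges of neighbours in this order did not overlap. Scn2a, the most abundant of them, exceeded Scn1a by 2.83 to 3.35 times and Cacna1e, the pore of the R-type channel, by 1.74 to 2.18 times within a mouse.

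The first comparison asked how channel transcripts differed between GFP-miR-9sp and GFP Ctrl mice. Of the 10 members, 7 passed the count limit and were tested with edgeR's quasi-likelihood test, and none was called at an adjusted p (Benjamini-Hochberg over all genes) under 0.05. Over all genes, 0 of 13045 were called (0%). At an unadjusted p under 0.05, 2.47% of all genes were higher and 2.26% lower after the sponge, and no channel gene was among them. The median log2 fold change of the 7 tested members was 0.03, beside -0.00 for all genes tested.

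Cacna1e was at 530.4, 662.2 and 511.9 CPM in sponge mice 17, 23 and 9, and at 535.7, 476 and 533.7 CPM in GFP Ctrl mice 16, 2 and 8. Mouse 23 stood above all others, while the remaining sponge mice lay among the controls, so that the groups overlapped. The log2 fold change was 0.17 (95% interval -0.05 to 0.38, edgeR adjusted p = 0.97), and without mouse 23 it was 0.03.

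The sodium channels were nearly level in this experiment. Scn2a was at 696.1, 787.2 and 715.8 CPM in the sponge mice and at 737.4, 709.7 and 738.4 CPM in GFP Ctrl mice (log2 fold change 0.03, 95% interval -0.09 to 0.16). Scn1a was at 228, 231.1 and 231.5 CPM in the sponge mice and at 227.5, 213 and 237.3 CPM in GFP Ctrl mice (0.05, -0.06 to 0.15). Scn3a was at 120.9, 133.3 and 112 CPM in the sponge mice and at 127.6, 132 and 118.6 CPM in GFP Ctrl mice (-0.02, -0.18 to 0.13). In each of these genes the sponge and control mice overlapped, and the intervals leave room for a change of at most 0.18 on the log2 scale in either direction.

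The low members bounded a change less closely. The sponge mice had 1.67 to 2.14 CPM of Scn8a and GFP Ctrl mice 1.56 to 2.19 CPM, with a log2 fold change of 0.07 (95% interval -0.38 to 0.51). For Cacna1b, the log2 fold change was 0.01 (-0.43 to 0.46), and for Cacna1d it was -0.01 (-0.43 to 0.41). These 3 genes rested on 30 to 52 reads per mouse, and the intervals leave room for changes of these sizes in either direction.

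The second comparison put GFP-miR-34sp mice against the GFP Ctrl mice of their own experiment. Again 7 members were tested and none was called. Over all 12492 genes, 8 were called (0.064%), all of them lower. At an unadjusted p under 0.05, 2.71% of all genes were higher and 3.72% lower after the sponge. Of the 10 channel genes, Cacna1e, Scn3a and Cacna1d were higher at this limit, with all 3 sponge mice above all 3 GFP Ctrl mice, and none was lower. Over all genes tested, 6.2% had all sponge mice above all control mice. The median log2 fold change of the 7 tested members was 0.11, beside -0.00 for all genes tested.

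**Figure D2:**
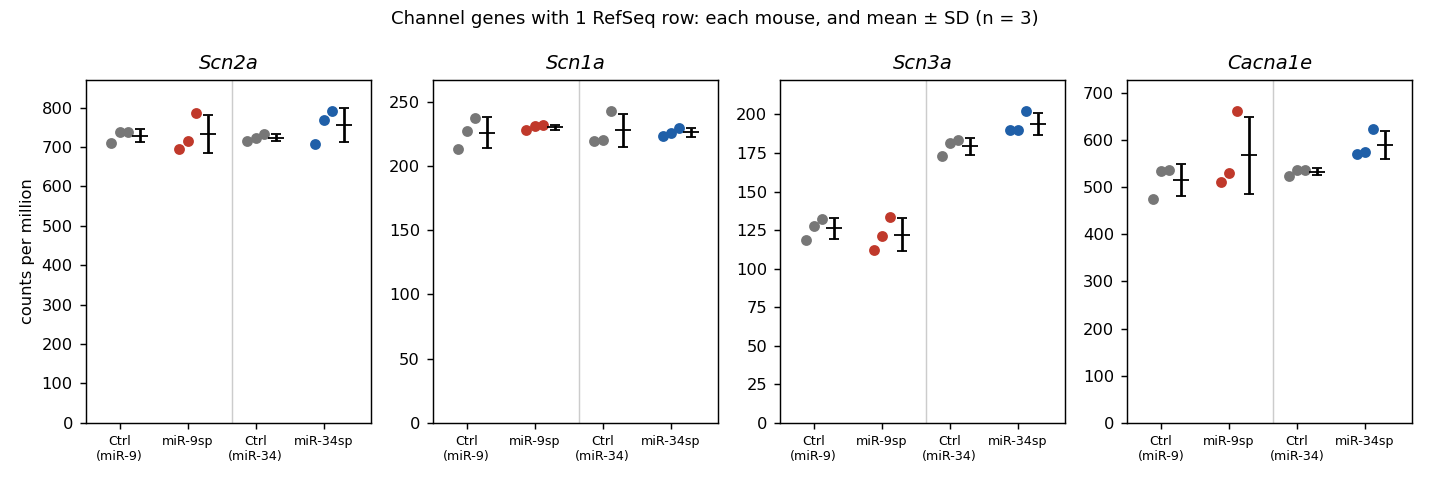
Level of the 4 channel genes with 1 RefSeq row in each mouse, in CPM (vertical axis from 0, a separate scale in each panel). Grey points are GFP Ctrl mice, red points GFP-miR-9sp mice and blue points GFP-miR-34sp mice, and the black bar beside each group is its mean ± SD (n = 3). Cacna1e and Scn3a lie higher in all GFP-miR-34sp mice than in their controls, and Scn3a lies lower in all mice of the miR-9 experiment than in those of the miR-34 experiment.

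Cacna1e was at 574.3, 624.6 and 571.3 CPM in sponge mice 13, 18 and 3, and at 537.4, 524 and 537.5 CPM in GFP Ctrl mice 10, 4 and 8. The lowest sponge mouse was above the highest control, and mouse 18 was the highest of the sponge mice. The group means were 590.1 ± 29.9 and 533 ± 7.73 CPM (SD, n = 3), a 1.1-fold ratio (95% interval 1.03 to 1.18, log2 fold change 0.14, SE 0.042). The edgeR unadjusted p was 0.00614 and the adjusted p 0.54, so that the difference failed the correction over all genes, and over the alternatives tried the adjusted p lay between 0.183 and 0.852. In 1 model of all 12 mice the unadjusted p of Cacna1e was 0.107 and that of Scn3a 0.0896 (edgeR), so that neither passed the unadjusted limit there.

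Scn3a was at 189.8, 202.3 and 189.9 CPM in the sponge mice and at 181.7, 172.9 and 183.2 CPM in GFP Ctrl mice. Here too mouse 18 was the highest, and the groups did not overlap. The means of 194 ± 7.2 and 179.3 ± 5.57 CPM (SD, n = 3) gave a log2 fold change of 0.11 (95% interval 0.02 to 0.20, edgeR adjusted p = 0.705, 0.603 to 1 over the alternatives). The unadjusted p was 0.0262, and without mouse 18 it was 0.114 (edgeR).

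Cacna1d was the largest difference among the members but rested on few reads. The sponge mice had 37, 24 and 32 reads, or 2.19, 2.06 and 2.4 CPM, and GFP Ctrl mice had 25, 14 and 16 reads, or 1.83, 1.27 and 1.36 CPM. The groups did not overlap, and control mouse 10 lay closest to the sponge mice. The log2 fold change was 0.55 (95% interval 0.05 to 1.06, SE 0.23, edgeR unadjusted p = 0.0344, adjusted p = 0.724). Without GFP Ctrl mouse 4 the unadjusted p was 0.108 (edgeR). Over the 13 alternatives (edgeR, DESeq2 or an unpaired test) the unadjusted p lay between 0.0161 and 0.156. The criterion of the study, an unpaired test with a ratio limit of 1.2 and no correction, was re-applied here and called Cacna1d alone among the members. In the row that held most of its reads, NM_001083616, the log2 fold change was 0.51 (95% interval -0.00 to 1.02, edgeR unadjusted p = 0.0511, adjusted p = 0.77), so that it missed the unadjusted limit that the gene sum passed.

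The other members showed no such separation. Scn2a was at 769.8, 791.6 and 708.6 CPM in the sponge mice and at 733.6, 716.2 and 721.8 CPM in GFP Ctrl mice, so that mouse 3 lay below all controls and the other sponge mice above them (log2 fold change 0.06, 95% interval -0.04 to 0.16). Scn1a was at 229.6, 225.3 and 223.1 CPM in the sponge mice and at 219.6, 220.4 and 242.8 CPM in GFP Ctrl mice (-0.01, -0.11 to 0.08). For Scn1a the interval was narrow around no change, and the sponge mice lay inside the range of the controls. Scn8a gave 0.17 (-0.33 to 0.66) and Cacna1b -0.13 (-0.69 to 0.43), each on 22 to 50 reads per mouse.

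**Figure D3:**
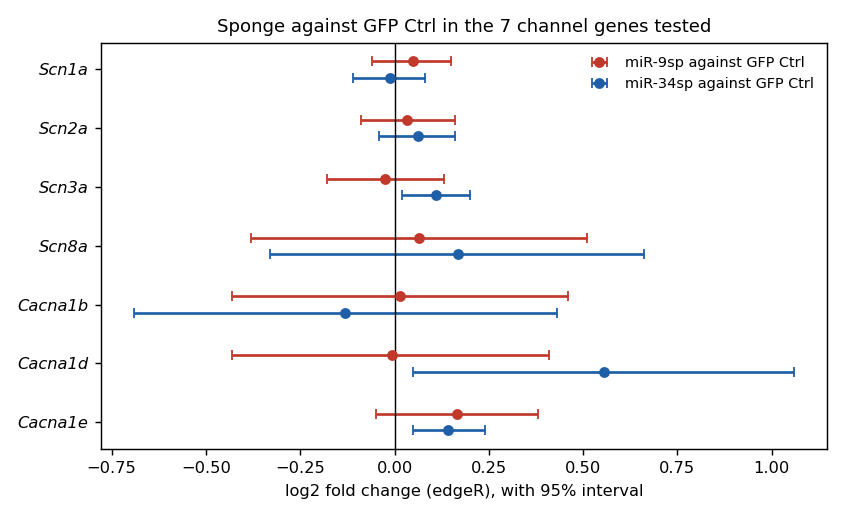
The log2 fold change (edgeR) of sponge against GFP Ctrl mice for the 7 channel genes that passed the count limit, with its 95% interval as a horizontal bar (n = 3 mice per group). Red is miR-9sp and blue is miR-34sp. In the miR-34 experiment the intervals of Scn3a, Cacna1d and Cacna1e lie above 0, before any correction for the number of genes, and all other intervals cross 0.

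Scn3a and Cacna1e, the 2 channel genes with a miR-34 8mer, were among the 3 higher after GFP-miR-34sp at an unadjusted p under 0.05. Their stretches are printed above. Neither was called, and Cacna1d, also among the 3, held no match in the searched 3′ UTR. The same 8mer was also present in other genes. Of 681 tested genes with a miR-34 8mer, 3.67% were higher at an unadjusted p under 0.05, beside 2.39% of 10795 tested genes without one. The median log2 fold change was -0.0040 with and -0.0025 without the 8mer, and 48.3% and 48.9% of genes were higher. In the miR-9 experiment, the values of Cacna1e, the member with a miR-9 match, overlapped between the groups.

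Markers of some hippocampal cell types differed in the same comparisons. In the miR-34 experiment, the 8 dentate granule cell markers summed to 552 to 625 CPM in sponge mice and to 468 to 605 CPM in GFP Ctrl mice, all 8 had a log2 fold change above 0 (median 0.19), and 3 of them (Tdo2, Lct and Dsp, named after their values were seen) passed an unadjusted p of 0.05. The 8 markers of CA2 and CA3 pyramidal cells summed to 587 to 651 CPM in sponge mice and 677 to 691 CPM in GFP Ctrl mice. Of 6 tested, 3 (Rgs14, Grik4 and Necab2, named after their values were seen) were lower at an unadjusted p under 0.05. Over all genes, 2.71% were higher and 3.72% lower at this limit. The groups overlapped in the 7 CA1 markers (623.7 to 669.1 CPM in sponge and 597.1 to 685.2 CPM in GFP Ctrl mice). They also overlapped in the 8 interneuron markers (1297 to 1344 and 1269 to 1413 CPM). Of 7 interneuron markers tested, 1 was higher at an unadjusted p under 0.05. In the miR-9 experiment all 8 dentate markers also had a log2 fold change above 0 (median 0.22), and none passed that limit. The CA2 and CA3 sums there were 635 to 711.2 CPM in sponge and 586.5 to 665 CPM in GFP Ctrl mice. Of these markers, 5 of 7 tested had a log2 fold change above 0, beside 1 of 6 in the miR-34 experiment. After miR-9sp, 2 of the 7 were higher and 1 lower at an unadjusted p under 0.05, beside 2.47% and 2.26% of all genes. Sponge mouse 23, the highest in Cacna1e, was the highest in dentate markers (651 CPM), and the other 5 mice had 413 to 551 CPM. GFP Ctrl mouse 2, the next highest in dentate markers (551 CPM), was the lowest in Cacna1e (476 CPM). In the miR-34 experiment, sponge mouse 18 was the highest in dentate markers (625 CPM), Cacna1e (624.6 CPM) and Scn3a (202.3 CPM). GFP Ctrl mouse 4 was the lowest there in all of them (467.5, 524 and 172.9 CPM). GFP Ctrl mouse 8 exceeded sponge mouse 13 in dentate markers (604.5 and 552.2 CPM) but not in Cacna1e (537.5 and 574.3 CPM). No marker of these hippocampal lists was called. The part of these markers, and of the choroid plexus difference given above, in the channel values was not tested.

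**Figure D4:**
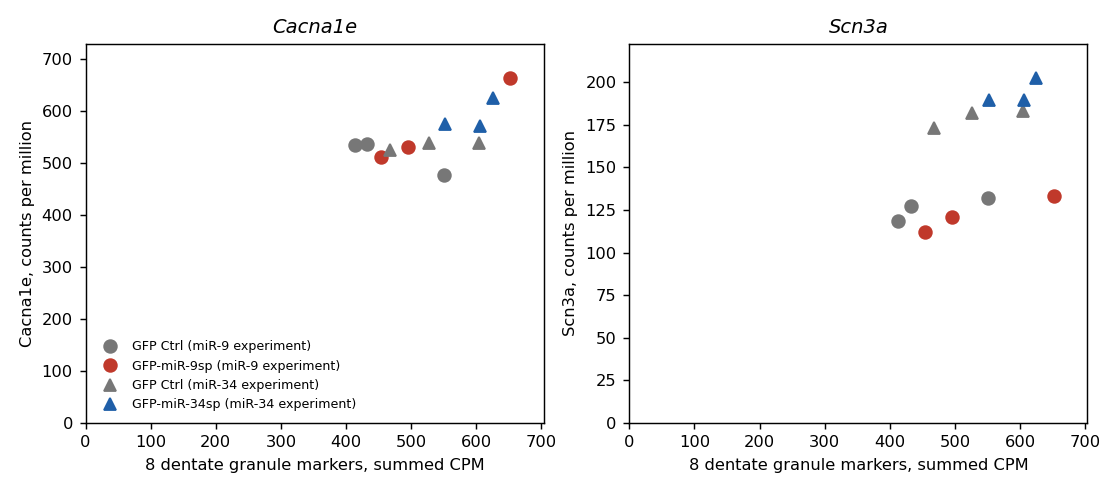
Cacna1e (left) and Scn3a (right) in CPM against the summed level of 8 dentate granule cell markers in the same mouse, both axes from 0. Circles are mice of the miR-9 and triangles of the miR-34 experiment, grey for GFP Ctrl, red for GFP-miR-9sp and blue for GFP-miR-34sp. The highest Cacna1e value, 662.2 CPM, belongs to the mouse with the highest marker sum. The lowest, 476 CPM, belongs to the mouse with the next highest marker sum of the miR-9 experiment (550.5 CPM). In the miR-34 experiment, the highest values of both genes belong to the mouse with its highest marker sum (625 CPM). In Scn3a the 2 experiments lie apart at similar marker sums.

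Whether the effects of the 2 sponges differed was tested in 1 model of all 12 mice. None of the 7 tested members was called, and neither was any of 12835 genes (0%), although 6.1% had an unadjusted p under 0.05. The largest difference was that of Cacna1d, at -0.56 on the log2 scale for the miR-9sp minus the miR-34sp effect (95% interval -1.16 to 0.03, edgeR adjusted p = 0.813). For Scn3a it was -0.13 (-0.31 to 0.05) and for Cacna1e 0.02 (-0.23 to 0.27). An effect in 1 experiment and none in the other was therefore not shown for any channel gene.

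Scn3a differed more between the experiments than between any sponge and its control. It was at 112 to 133.3 CPM in the 6 mice of the miR-9 experiment and at 172.9 to 202.3 CPM in the 6 of the miR-34 experiment. This held within libraries, since Scn2a exceeded Scn3a per length by 5.92 to 7.03 times in the former and 4.11 to 4.56 times in the latter. Between the GFP Ctrl groups alone, 126 ± 6.85 against 179.3 ± 5.57 CPM (SD, n = 3), the log2 difference was -0.56 (95% interval -0.66 to -0.46, edgeR adjusted p = 6.76e-06), and it was called in all 9 alternatives.

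Of the 12878 genes tested in this comparison of controls, which was added after the values were seen, 25.2% were called, and Scn3a was the only one of the 7 tested members among them. Of the others, Cacna1e had the smallest p, at -0.10 (95% interval -0.21 to 0.00, edgeR adjusted p = 0.153), and Scn1a and Scn2a were at -0.06 and -0.04. The low members had larger differences with wide intervals, at -0.38 (-0.95 to 0.20) for Cacna1b, -0.36 (-0.85 to 0.12) for Scn8a and 0.21 (-0.27 to 0.69) for Cacna1d. The experiments were sequenced as separate sets of libraries of different depth, and the column names of the miR-9 set carry the word totRNA. The experiment and its libraries cannot be told apart here.

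Single RefSeq rows were tested in the same way as gene sums. In the miR-9 experiment, 0 of 13439 rows were called (0%), and in the miR-34 experiment 4 of 12787 (0.0313%), with no channel row among them. At an unadjusted p under 0.05, the rows of Cacna1e and Scn3a were higher after miR-34sp, while NM_001083616 of Cacna1d, unlike its gene sum, missed this limit. For Scn8a, the row NM_011323 gave a log2 fold change of 0.13 (95% interval -0.37 to 0.62) after miR-9sp and 0.31 (-0.24 to 0.86) after miR-34sp. Cacna1g had 3 to 12 reads per mouse in the miR-9 and 2 to 5 in the miR-34 experiment, and Cacna1c had 0 to 3 in all mice, so that neither was tested.

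The partners of the channels were taken from fixed lists, and none of the genes described here was called in either experiment. Among 11 partners of sodium channels at the axon initial segment and node, such as ankyrins, spectrins and fibroblast growth factor homologous factors, 1 of 10 tested passed the unadjusted limit after miR-9sp. This was Sptbn1, a beta spectrin of the membrane skeleton (0.11, SE 0.038, edgeR unadjusted p = 0.0169). After miR-34sp none of 9 tested did, and the smallest p was that of Fgf12 (-0.30, edgeR unadjusted p = 0.0707). The median log2 fold change of this list was 0.05 after miR-9sp and -0.01 after miR-34sp. In the mice of the miR-9 experiment the 8 neuron markers summed to 2305 to 2394 CPM in sponge and 2192 to 2309 CPM in GFP Ctrl mice, and the 8 microglia markers to 509 to 541 and 555 to 573 CPM, and their part in the partner values was not tested.

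For calcium channels, 2 of the 4 beta subunits and 2 of the 4 alpha2delta subunits were tested in each experiment, and none passed the unadjusted limit. The smallest p were those of Cacnb2 (0.11 after miR-9sp and -0.26 after miR-34sp) and Cacna2d3 (-0.02 and -0.06). The median log2 fold changes were 0.07 and -0.19 for the beta and -0.04 and -0.12 for the alpha2delta subunits, each from 2 genes. Of 10 presynaptic and signalling partners, 9 were tested, and 2 passed the unadjusted limit after miR-9sp, both higher, and none after miR-34sp. Calm3, which encodes the calcium sensor calmodulin, had the smallest p (0.11, SE 0.041, edgeR unadjusted p = 0.0191), and the other was Rimbp2 (0.16), a scaffold at release sites that was named after its values were seen. Over all genes, 2.47% were higher at the unadjusted limit after miR-9sp. The median of the list was 0.04 after miR-9sp and -0.03 after miR-34sp, and after miR-34sp the smallest p was that of Calm2 (0.05), a second calmodulin gene. Of 11 further alpha subunits, 5 were tested after miR-9sp and 4 after miR-34sp, none passed the unadjusted limit, and the smallest p in both was that of Cacna1i (0.07 and -0.03), a T-type channel.

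The members' patterns over the 12 mice were compared after centring the log2 CPM on each experiment, and the correlations are descriptions over 12 mice, each with its own library, that include both sponge and GFP Ctrl groups. Scn2a and Cacna1e ran most closely together (Pearson r = 0.80), followed by Scn2a with Scn3a (0.57) and Scn3a with Cacna1e (0.54). Scn1a ran with none of them closely, with r between -0.25 and 0.29. Among 9238 other genes, the one most like Cacna1e was Ryr2 (r = 0.95), a calcium release channel of the endoplasmic reticulum. For Scn2a it was Pafah1b2 (0.92), for Scn3a Klhl23 (0.91) and for Scn1a Efcc1 (0.85). Each r is the highest of 9238 over 12 mice, and how high the highest would be among unrelated genes was not tested. In the miR-9 experiment, sponge mouse 23 was the highest in both Cacna1e and Ryr2. It had 575.1 CPM of Ryr2, beside 400.6 to 440.1 CPM in the other mice of that experiment. The weight of this mouse in the correlation was not tested.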

How the data were processed

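The authors sequenced 50 base single reads from hippocampal RNA and quantified them to RefSeq transcripts, and the deposited tables hold raw counts per transcript row. The submitters' processing notes name STAR and mm10, whereas the study's methods name mm9. How reads that fit several rows were counted, and whether strand was used, is not given in the sources used here. Rows were joined to symbols through RefSeq (GRCm38.p6, 98.7% of rows) and summed per gene. Coordinates and 3′ UTRs came from GENCODE M1 (mm9) alone.

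Each sponge group was compared with the GFP Ctrl mice of its own experiment in edgeR 4.0.16 (R 4.3.3; TMM, glmQLFTest) on genes with a mean scaled count above 10, with Benjamini-Hochberg adjustment over all genes tested. Intervals are 95% and unadjusted for the number of genes. CPM values are reads per 1000000 counted reads of a mouse. Alternatives used DESeq2 1.42.0, other scaling and count limits, single rows, the study's criterion and the omission of each mouse, and the fit was tested on simulated data. Mice of 1 group are separate animals. The members and gene lists were chosen with earlier results of these data known. By the rule for named genes, all members are named, a list gene only if called or the smallest p of its list, and for each well-counted member the 1 gene (mean scaled count above 100) with the highest correlation. Genes named outside this rule are marked where they appear. Tables were read with Python 3.11.15 and pandas 2.3.3. The results of 1 of the fixed gene lists are not reported here.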

Additional observations from a re-analysis of the deposited data

How the results depend on the processing

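No channel gene was called under any alternative in either sponge comparison, except that the study's criterion called 1 in the miR-34 experiment, Cacna1d (1 gene, and 1 RefSeq row). Cacna1e and Scn3a kept a positive log2 fold change after miR-34sp in all 14 alternatives and Cacna1d in all 13. Signs near 0 turned for Cacna1b after miR-9sp (-0.008 with library totals alone and -0.006 under the study's criterion, the same for its row NM_001042528), for Cacna1e in the difference between the sponges (-0.006 with library totals alone) and for Scn2a between the GFP Ctrl groups (0.009 with library totals alone). The cause of these was not tested.

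Without 1 mouse at a time, the miR-9sp log2 fold changes ran from -0.034 to 0.08 for Scn2a, -0.104 to 0.036 for Scn3a, -0.062 to 0.193 for Scn8a, -0.133 to 0.099 for Cacna1b and -0.119 to 0.102 for Cacna1d. After miR-34sp they ran from -0.038 to 0.035 for Scn1a and -0.387 to 0.023 for Cacna1b. In the difference they ran from -0.094 to 0.019 for Scn2a, -0.27 to 0.025 for Scn8a, -0.006 to 0.404 for Cacna1b and -0.114 to 0.096 for Cacna1e. By row they ran from -0.036 to 0.076 for NM_001099298, -0.105 to 0.036 for NM_018732, -0.036 to 0.284 for NM_011323, -0.133 to 0.099 for NM_001042528 and -0.211 to 0.083 for NM_001083616 after miR-9sp, and from -0.038 to 0.034 for NM_018733 and -0.387 to 0.022 for NM_001042528 after miR-34sp.

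The counts of all genes called depended on the tool. After miR-9sp they were 2 with DESeq2, 2 with all genes of at least 1 read and 188 under the study's criterion (rows 2, 2 and 201), and 0 to 1 without 1 mouse (rows 0 to 1). After miR-34sp they were 36 with DESeq2, 4 with library totals alone, 4 with DESeq2 size factors in edgeR, 81 with all genes of at least 1 read, 0 with a count limit of 100, 0 in 1 model of 12 mice and 249 under the study's criterion (rows 37 with DESeq2, 140 with all rows and 258 under the criterion). They were 0 to 57 without 1 mouse (rows 0 to 60), the highest without GFP Ctrl mouse 10. The study's criterion was re-applied here to the deposited counts. The study itself reported fewer altered genes in both experiments, so that its own numbers were not reproduced. The difference between the sponges gave 5 with DESeq2, 4 with all genes of at least 1 read and 0 to 1 without 1 mouse. No paired analysis was possible because sponge and control mice share no replicate number. With 3 mice per group, an exact permutation test could not pass 0.05, and Cacna1a, Cacna1c and Cacna1g had too few reads to test.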
